A study of Mus musculus with 2 samples.

Results

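The 9 genes described here belong to the handling and sensing of tryptophan. They are Ido1, Ido2 and Tdo2 (the opening step), Kynu and Kmo (steps after kynurenine), Il4i1 (a side route), Ahr and Cyp1b1 (the receptor and a target gene) and Wars (the loading of tryptophan onto tRNA). They were chosen by symbol, and all 9 were found among the 32285 genes counted in single cells of MC38 tumors. MC38 is a mouse colon carcinoma line, which was grown under the skin of C57BL/6 mice. Tumors were injected with MSA-2, a small-molecule agonist of the innate DNA-sensing adaptor STING, or were left as the negative control that the labels call untreated. The series' design text describes the control injection as saline with 10% DMSO, and the paper's methods call it saline. Injections were given every 3 days for 3 doses, and the tumors were collected on day 7. Each condition is 1 library made from the pooled tumors of 3 mice, so no difference between the libraries has a replicate check, and every interval below covers counting error only.

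IDO1, IDO2 and TDO2 open the indole ring of tryptophan, and the product becomes kynurenine. KMO hydroxylates kynurenine and KYNU cleaves it and its hydroxylated form on the way to NAD, while IL4I1 is a secreted oxidase that converts tryptophan to indole pyruvate. Kynurenine and indole products can bind the aryl hydrocarbon receptor, encoded by Ahr, which pairs with ARNT and switches on genes such as Cyp1b1. In tumors the pathway is known for holding back T cells, and Ido1 and Wars are textbook genes of the response to interferon-gamma.

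After filtering, 13349 untreated and 13311 MSA-2 cells were kept, with a median of 8303 and 9202 unique molecular identifiers (UMIs, counted mRNA molecules) a cell and 183723936 and 189515443 UMIs in all. The libraries shared 53 cell barcodes. Cells were grouped into classes rebuilt from marker lists, which may differ from the study's own names. The class called tumor-like was named from Gng11, Ccn1 and Anxa1, while keratins that mark colon epithelium were nearly absent from it: Krt8 had 23 untreated and 42 MSA-2 UMIs in the class, and Krt18 had 1 and 2. Each of its 8 clusters rests on 3 detected markers, none among the 10 leading genes, and cluster 9 scored higher on the Schwann cell list, of which fewer than 3 markers were detected in at least 10% of cells. Cells rich in S100a9 and G0s2 are named neutrophil-like here, from those and other markers. The make-up of the libraries differed: neutrophil-like cells were 72 and 2637, fibroblast-like cells 204 and 676, macrophage-like cells 2936 and 1049, and cells of the dendritic classes 393 and 44. A further 704 untreated and 837 MSA-2 cells, mostly shallow, stayed unnamed. Levels are UMIs per 1000000 UMIs of a class (CPM) and compare libraries or classes for 1 gene at a time. A gene is called higher or lower when its level differed at least 2-fold and it had at least 50 UMIs in both libraries together.

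The annotated start of Cyp1b1 is shown because its expression is commonly read as a sign of AHR activity, and that of Tdo2 because it is the other member with the same match. AHR with ARNT binds the xenobiotic response element, whose core letters GCGTG were searched on both strands in RefSeq promoter windows of 300 bases (GRCm38.p6). Windows were found for 4 of the 9 genes (Tdo2, Kmo, Il4i1 and Cyp1b1). Those of Tdo2, Kmo (chr1:175631943-175632242) and Il4i1 (chr7:44836038-44836337) lie inside the gene spans given below. The outer starts of those spans, from another annotation, were not searched. In both sequences, written 5′ to 3′ along the gene's strand, the capitals mark the core on the opposite strand. The window is at chr17:79715012-79715311 for Cyp1b1 and chr3:81975679-81975978 for Tdo2, both on the minus strand.
Cyp1b1: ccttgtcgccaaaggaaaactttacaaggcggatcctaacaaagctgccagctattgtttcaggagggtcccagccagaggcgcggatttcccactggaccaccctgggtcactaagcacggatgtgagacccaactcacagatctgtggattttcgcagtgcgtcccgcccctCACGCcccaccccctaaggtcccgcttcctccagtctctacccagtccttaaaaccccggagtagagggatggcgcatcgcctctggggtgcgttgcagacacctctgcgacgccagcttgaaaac
Tdo2: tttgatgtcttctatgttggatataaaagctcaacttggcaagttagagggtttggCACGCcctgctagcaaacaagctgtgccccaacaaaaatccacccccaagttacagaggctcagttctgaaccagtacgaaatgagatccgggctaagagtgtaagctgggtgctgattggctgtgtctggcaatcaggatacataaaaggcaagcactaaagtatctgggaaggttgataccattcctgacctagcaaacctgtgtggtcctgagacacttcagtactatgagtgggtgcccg
The core was present in 32.4% of 32851 promoter windows. Neither the interferon-gamma-activated site TTCNNNGAA (8.3% of windows) nor the interferon-stimulated response element (GAAA, any 2 bases, GAAA, 3.44%) was found on either strand in the 4 windows. These matches are descriptions of letters and not of binding.

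The steps of the pathway were held by different cell classes. Tumor-like cells held 80.7% of all untreated and 85.3% of all MSA-2 UMIs, and their shares of Ido1 (94.6% and 92.8%) and Ido2 UMIs (94.7% and 95.9%) were above that, while those of Wars (83.7% and 89.6%) were close to it. UMIs of Cyp1b1 lay mostly in fibroblast-like cells. Kynu UMIs lay mostly in dendritic and other myeloid classes in the untreated library. Dendritic classes held 62.9% of Kmo UMIs untreated and 8% with MSA-2, when tumor-like cells held 56%. Il4i1 was split in the untreated library between cells with markers of mature regulatory dendritic cells (mregDC, 35%) and tumor-like cells (43.3%), and with MSA-2 these held 3.57% and 76.9%. Over all cells, Ido1 had 93 untreated and 332 MSA-2 UMIs, Ido2 263 and 689, Tdo2 4 and 19, Kynu 361 and 289, Kmo 151 and 50, Il4i1 363 and 308, Ahr 3933 and 5518, Cyp1b1 351 and 1811, and Wars 4677 and 5973. The 8 genes other than Tdo2 passed the UMI minimum. Ido1, Ido2 and Cyp1b1 were called higher with MSA-2, beside 9.4% of 17386 genes, and Kmo was called lower, beside 7.59% of those genes.

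**Figure D1:**
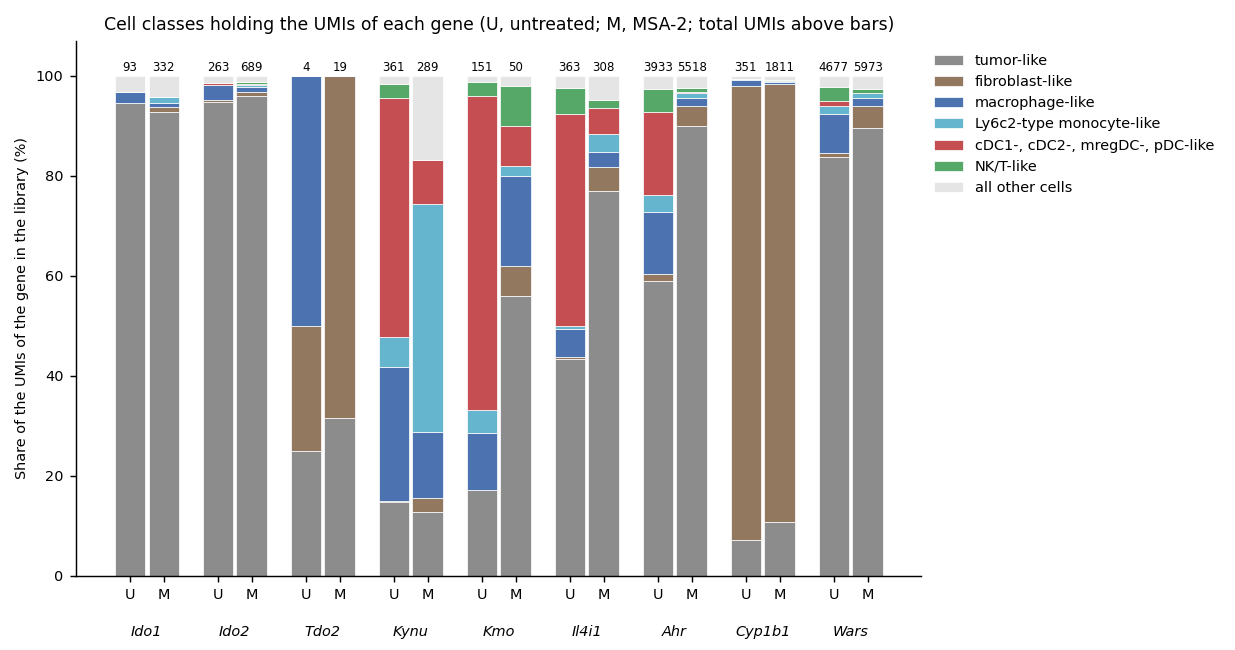
Share (%) of each gene's UMIs held by each cell class in the untreated (U) and MSA-2 (M) libraries, with the total UMIs of the gene above each bar; Tdo2 rests on 4 and 19 UMIs. Tumor-like cells held 94.6% and 92.8% of the Ido1 UMIs, and fibroblast-like cells 90.9% and 87.6% of the Cyp1b1 UMIs.

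Ido1 (chr8:24584136-24597009, minus strand) encodes the interferon-inducible enzyme of the opening step. In tumor-like cells it had 88 untreated and 308 MSA-2 UMIs, or 0.594 CPM (95% counting interval 0.476 to 0.731) and 1.90 CPM (1.70 to 2.13). The log2 ratio (always MSA-2 over untreated) was 1.68 (1.34 to 2.04), so Ido1 was called higher there. It was 1 of 3 members called higher in the class, beside 8.99% of 16073 genes, with none of the 8 that passed called lower, beside 5.34%. The transcript was rare in both libraries: 65 of 6535 untreated and 182 of 6938 MSA-2 tumor-like cells had a UMI, or 0.995% and 2.62%. Of those 182 cells, 130 had 1 UMI, while 8 cells with at least 5 UMIs held 66 of the 308 UMIs and the highest cell had 19. With each cell thinned to 1500 UMIs, the shares were 0.107% and 0.447% (0.304% to 0.634%). In thinned MSA-2 macrophage-like cells the share was 0.293% (0.0605% to 0.854%), an interval that overlapped the tumor-like one. In MSA-2 neutrophil-like cells it was 0.053%. The median depth was 20124 UMIs in MSA-2 tumor-like and 1793 in neutrophil-like cells.

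Outside the tumor-like class Ido1 had 5 untreated and 24 MSA-2 UMIs. No Ido1 UMI was found in the dendritic classes, in which Ido1 is known to be inducible. That was 0 of 393 untreated cells, which allows a share of cells with a UMI of up to 0.763%, and 0 of 44 MSA-2 cells, which allows up to 6.82%. NK/T-like cells, 1527 and 301 in number, had none either, which allows up to 0.196% and 0.997%. Endothelial-like cells had 3 and 2 UMIs, which in so small a class is 4.69 CPM (0.966 to 13.7) and 2.09 CPM (0.253 to 7.55), above and near the tumor-like level. Further counts were 2 and 3 in macrophage-like and 0 and 4 in Ly6c2-type monocyte-like cells. A further 10 MSA-2 UMIs lay in 2 cells of an unnamed cluster led by the skeletal muscle gene Acta1, with 9 of them in 1 cell.

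Within the tumor-like class, the Ido1 level was higher with MSA-2 in the 7 clusters other than cluster 8, and the counting intervals of the libraries did not overlap in 5 of them. The highest MSA-2 level, 4.84 CPM from 64 UMIs, was in cluster 6, led by Hist1h2ae, Cdkn2a and Diaph3. Cluster 8, led by Pcdh9, Ednra and Glis3, held 104 untreated and 1054 MSA-2 cells and had 0 and 2 Ido1 UMIs, too few for a direction. Without cluster 8 the log2 ratio of the class was 1.79 (1.45 to 2.15). Ifng, which encodes interferon-gamma, was at 665 and then 2255 CPM in NK/T-like cells, while over all cells it was at 25.1 and 23.1 CPM. In tumor-like cells Irf1, an interferon-induced transcription factor gene, was at 231 and 306 CPM. The part of interferon-gamma in the Ido1 difference was not tested.

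Ido2 (chr8:24531892-24576333, minus strand) encodes a related enzyme of weaker activity and lies next to Ido1, with 7802 bp between the genes. It had 249 untreated and 661 MSA-2 UMIs in tumor-like cells, or 1.68 CPM (1.48 to 1.90) and 4.09 CPM (3.78 to 4.41). The log2 ratio was 1.28 (1.07 to 1.5), and Ido2 was called higher. Tumor-like cells held 94.7% and 95.9% of its UMIs, and the macrophage-like class was the next in the untreated library, with 8 UMIs. Ido2 was higher with MSA-2 in 8 of 8 tumor-like clusters, with intervals apart in 5. It ran from 1.42 to 2.19 CPM in untreated and from 2.59 to 7.19 CPM in MSA-2 clusters, and cluster 6 was the highest in both. In cluster 8 Ido2 had 3 and 48 UMIs.

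Cells that had an Ido1 UMI also had more Ido2. In the 65 such untreated tumor-like cells Ido2 was at 6.64 CPM, against 1.61 CPM in the rest of the class, a log2 ratio of 2.04 (1.11 to 2.84). In the 182 such MSA-2 cells it was at 11.9 CPM against 3.83 CPM, a log2 ratio of 1.64 (1.24 to 2.02), and 48 of them held both transcripts. Ahr went the other way, at 9.19 against 15.7 CPM in untreated and 22.5 against 31.0 CPM in MSA-2 cells. These cells were deeper than the rest, with a median of 31442 against 20375 UMIs in untreated and 24351 against 20000 in MSA-2 cells. Cells of 1 library are not replicates, so the ratios describe these libraries.

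**Figure D2:**
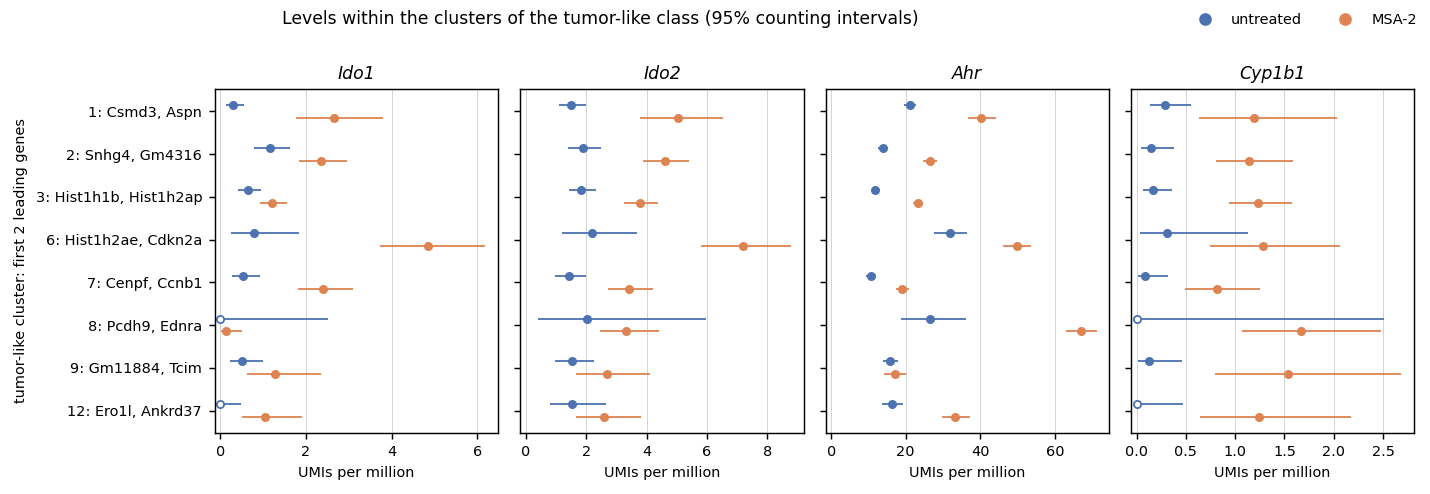
Levels (CPM, x axes) of Ido1, Ido2, Ahr and Cyp1b1 in the 8 clusters of the tumor-like class in the untreated and MSA-2 libraries; bars are 95% counting intervals and open points are 0 UMIs. Ido1 peaked in cluster 6 at 4.84 CPM, and Ahr in cluster 8 at 67.1 CPM.

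Tdo2 (chr3:81957090-81976202, minus strand), the liver enzyme of the same step, was too sparse for a call. Its 4 untreated UMIs lay in macrophage-like (2), fibroblast-like (1) and tumor-like (1) cells. Of its 19 MSA-2 UMIs, 13 lay in 7 fibroblast-like cells and 6 in tumor-like cells. The fibroblast-like level was 0.395 CPM (0.00999 to 2.20) untreated and 1.34 CPM (0.713 to 2.29) with MSA-2, so the intervals overlapped.

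Kynu (chr2:43555329-43682715, plus strand) encodes kynureninase. In the untreated library its level was highest in mregDC-like cells (79.5 CPM, 54.4 to 112), cDC2-like cells (69.0 CPM, 56.4 to 83.6) and cDC1-like cells (53.3 CPM, 36.9 to 74.5), and the intervals of these 3 classes overlapped. Macrophage-like cells were at 5.23 CPM and tumor-like cells at 0.358 CPM. In the MSA-2 library the class with the most Kynu UMIs was the Ly6c2-type monocyte-like class, which held 45.7% of them against 5.82% in the untreated library. Kynu had 21 UMIs in 862 untreated and 132 UMIs in 725 MSA-2 cells of this class, or 6.26 CPM (3.87 to 9.57) and 45.1 CPM (37.7 to 53.4). The log2 ratio was 2.85 (2.18 to 3.59). Kynu was thus called higher and Ahr lower among the 3 members that passed in this class, beside 10.5% higher and 11% lower of 8070 genes. With trimmed mean of M-values (TMM) scaling, which moved the median log2 ratio of all genes in the class by 0.26, 1120 genes were higher and 449 lower, in place of 849 and 887, and both members kept their call.

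The class was made of 2 sub-clusters, and Kynu was higher with MSA-2 in both. Sub-cluster 1, led by Chil3, Ly6c2 and Tgfbi, held 764 untreated and 274 MSA-2 cells and went from 21 to 33 UMIs, or 7.35 to 30.3 CPM. Sub-cluster 7, led by Cacna1d, Slpi and Ifnb1, held 98 and 451 cells and went from 0 to 99 UMIs, the latter at 53.8 CPM, at least 8.91-fold higher against a floor of 3 counts. Markers of neutrophil-like cells moved with it: 10 of 10 were higher in the MSA-2 cells of the class, and their levels summed to 249 CPM untreated against 2858 CPM treated. S100a9, 1 of those markers, was also higher with MSA-2 in other classes, at 2.59 and 477 CPM in macrophage-like and 1.15 and 217 CPM in tumor-like cells. The neutrophil-like class itself had 2 Kynu UMIs in 2637 MSA-2 cells (0.396 CPM). The share of monocyte-like cells with a Kynu UMI was 2.32% and 12%, and 0.483% and 7.32% after thinning to 1500 UMIs. In MSA-2 neutrophil-like cells it was 0.0758%, at median depths of 3860 and 1793 UMIs. With macrophage-like and Ly6c2-type cells pooled, Kynu went from 118 to 170 UMIs, or 5.39 to 19.9 CPM, with a log2 ratio of 1.89 (1.54 to 2.24).

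Kynu was also called higher in cDC2-like cells, with 104 untreated and 16 MSA-2 UMIs, or 69.0 CPM and 176 CPM (101 to 286). The log2 ratio was 1.35 (0.49 to 2.12) and rested on 26 MSA-2 cells against 240 untreated cells. In this class Kynu was called higher beside 8.18% of 4304 genes and Ahr lower beside 18.6%. In mregDC-like cells Kynu was at 79.5 and 162 CPM, from 32 and 9 UMIs, under the UMI minimum. In macrophage-like cells it was at 5.23 and 6.78 CPM, a log2 ratio of 0.37 (-0.21 to 0.93). In tumor-like cells 53 and 37 UMIs gave a log2 ratio of -0.64 (-1.29 to -0.01), an interval that barely left out 0, and 46 untreated and 33 MSA-2 cells had a UMI (0.704% and 0.476%). The level was lower with MSA-2 in 6 of the 8 tumor-like clusters and higher in 2, with intervals apart in 0. Without cluster 8 the log2 ratio of the class was -0.51 (-1.17 to 0.14), an interval that took in 0. Only 1 and 3 cells kept a Kynu UMI after thinning, too few to read. Unnamed cells held 3 untreated and 47 MSA-2 Kynu UMIs.

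Kmo (chr1:175620381-175662116, plus strand) encodes kynurenine 3-monooxygenase and overlaps Fh1 on the other strand. Its highest untreated level was in plasmacytoid dendritic (pDC)-like cells, at 191 CPM (102 to 326) from 13 UMIs in 17 cells. It was followed by cDC2-like cells at 43.1 CPM (33.3 to 55) and cDC1-like cells at 25.1 CPM (14.3 to 40.8), while mregDC-like cells had 1 UMI. The call lower over all cells, from 0.822 to 0.264 CPM, moved with the number of dendritic cells. The dendritic classes held 95 of 151 untreated and 4 of 50 MSA-2 UMIs. Within cDC2-like cells the level was 43.1 and 44.1 CPM, from 65 and 4 UMIs, the latter in 2 cells. The log2 ratio there was 0.03 (-1.89 to 1.46), an interval too wide to leave out a difference within the class. In tumor-like cells 26 and 28 UMIs gave 0.175 and 0.173 CPM, with the UMIs spread over 26 and 25 cells.

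Il4i1 (chr7:44816387-44840809, plus strand) was concentrated in mregDC-like cells. There it had 127 UMIs in 74 untreated cells, or 316 CPM (263 to 375), and 40 cells (54.1%) had a UMI. In MSA-2 it had 11 UMIs in 14 cells, or 199 CPM (99.1 to 355). The log2 ratio was -0.67 (-1.71 to 0.22), and the intervals of the levels overlapped. The next untreated classes were cDC1-like cells at 14.1 CPM (6.46 to 26.8) and cDC2-like cells at 11.9 CPM (7.08 to 18.9), which did not differ beyond their counting error. Tumor-like cells held 157 untreated and 237 MSA-2 UMIs, or 1.06 and 1.47 CPM, a log2 ratio of 0.47 (0.17 to 0.77). Those UMIs were scattered, with 157 UMIs in 153 cells and 237 in 217. The level was higher with MSA-2 in 5 of 8 tumor-like clusters, with intervals apart in 1. Cluster 8 held 2 untreated and 46 MSA-2 UMIs. Without it the log2 ratio of the class was 0.30 (-0.02 to 0.61), an interval that took in 0. The Il4i1 locus shares its strand with Nup62, a nuclear pore gene, which was at 72.9 and 74.1 CPM in tumor-like and 27.3 and 36.1 CPM in mregDC-like cells. How reads shared by the overlapping genes were assigned, and their part in the tumor-like counts, were not tested.

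Ahr (chr12:35497974-35535038, minus strand), the receptor gene, overlaps Gm48236 on the other strand, which was also highest in untreated cDC1-like cells (28 UMIs, 43.9 CPM). Ahr was detected in every named class of the untreated library, with a wide range. It was highest in cDC1-like cells at 532 CPM (477 to 592), followed by cDC2-like cells at 184 CPM (163 to 207) and mregDC-like cells at 74.5 CPM (50.3 to 106), and these intervals did not overlap. Next came a T-cell sub-cluster at 60.5 CPM (38.8 to 90.0), pDC-like cells at 58.7 CPM (16.0 to 150) and Treg-like cells at 50.3 CPM (30.7 to 77.7), which did not differ beyond their counting error. That sub-cluster of 182 cells scored high on both the conventional CD4 and the gamma-delta T lists, with Il17a among its leading genes, and is given no name here. CD8 T-like cells were lower, at 13.5 CPM (9.22 to 19.0). Neutrophil-like cells had 1 UMI, or 5.42 CPM (0.137 to 30.2), too few to rank.

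The Ahr difference went one way in tumor-like cells and the other in macrophage-like, Ly6c2-type and cDC2-like cells. Neutrophil-like cells had 1 and 42 UMIs (5.42 and 8.31 CPM), with overlapping intervals. In tumor-like cells Ahr had 2319 untreated and 4967 MSA-2 UMIs, or 15.6 CPM (15 to 16.3) and 30.7 CPM (29.9 to 31.6). The log2 ratio of 0.97 (0.90 to 1.04) lay just under the 2-fold limit, so Ahr was not called. Its level was higher with MSA-2 in 8 of 8 tumor-like clusters, and the intervals were apart in 7. The exception was cluster 9, led by Gm11884, Tcim and Krt14, at 15.9 and 17 CPM. The highest level was in cluster 8, at 67.1 CPM from 966 UMIs with MSA-2 against 26.5 CPM from 39 untreated UMIs. Without cluster 8 the log2 ratio was 0.81 (0.73 to 0.88). The share of tumor-like cells with an Ahr UMI was 25.4% and 40.5%, and 2.3% and 5.48% after thinning, beside 1.11% of thinned MSA-2 neutrophil-like cells.

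In Ly6c2-type monocyte-like cells Ahr had 137 untreated and 47 MSA-2 UMIs, or 40.8 CPM (34.3 to 48.3) and 16.0 CPM (11.8 to 21.3). The log2 ratio was -1.35 (-1.86 to -0.86), and Ahr was called lower. With macrophage-like and Ly6c2-type cells pooled, the Ahr ratio was -0.76, within 2-fold and so not called. The higher neutrophil markers given above for the MSA-2 cells of the Ly6c2-type class apply here too, and their part was not tested. Both sub-clusters of the class were lower, sub-cluster 1 at 37.8 and 20.2 CPM and sub-cluster 7 at 58.3 and 13.6 CPM. In macrophage-like cells it was at 26.4 and 17.3 CPM, a log2 ratio of -0.61 (-0.94 to -0.29). The make-up of that class differed, with sub-cluster 8 (Pf4, Ccl8, Folr2) at 83 and 251 cells and sub-cluster 9 (C1qc, Clec12a) at 262 and 24. Ahr was lower with MSA-2 in sub-clusters 0 (25.7 and 18.8 CPM), 4 (34.2 and 14.0 CPM), 6 (22.2 and 15.2 CPM) and 9 (26.6 and 21.8 CPM), with an interval that left out 0 in sub-cluster 4 alone. In sub-cluster 8 it was at 14.8 and 18.3 CPM, a log2 ratio of 0.30 (-0.86 to 1.64). In cDC2-like cells 277 and 8 UMIs gave 184 and 88.2 CPM, a log2 ratio of -1.06 (-2.29 to -0.06), which was called lower. With TMM scaling the value in cDC2-like cells was -0.93, within 2-fold. The cDC1-like class, which had the highest level, was down to 2 MSA-2 cells with 1 Ahr UMI, a log2 ratio of -2.14 (-7.45 to 0.35). Markers of cDC1 moved with these differences, 1 of 8 being higher in the MSA-2 cells of the monocyte-like class (422 and 165 CPM summed, with Gcsam at 0 in both libraries). In the macrophage-like class 1 of 8 was higher (513 and 275 CPM summed), and in the cDC2-like class 0 of 8 (702 and 254 CPM summed, with Gcsam at 0 in both and Xcr1, Clec9a, Cadm1 and Snx22 at 0 with MSA-2). The cDC2 and mregDC lists moved less in the monocyte-like class. There the cDC2 markers summed to 314 and 309 CPM (1 of 8 higher) and the mregDC markers to 82.0 and 91.5 CPM (6 of 9 higher). In the cDC2-like class the mregDC markers summed to 480 and 386 CPM (4 of 9 higher). The part of these markers in the result was not tested. Fibroblast-like cells (20.5 and 21.8 CPM), NK/T-like cells (30 and 29.3 CPM) and endothelial-like cells (39.0 and 38.7 CPM) differed by less than their counting error.

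Cyp1b1 (chr17:79701537-79715061, minus strand), a cytochrome P450 of hormone and xenobiotic metabolism, was a gene of fibroblast-like cells. They held 319 of 351 untreated and 1586 of 1811 MSA-2 UMIs. Its level in them was 126 CPM (112 to 141) untreated and 163 CPM (155 to 172) with MSA-2, a log2 ratio of 0.38 (0.20 to 0.55), which was within 2-fold. Of fibroblast-like cells, 55.4% and 61.5% had a UMI, and 13.1% and 22% after thinning, beside 0.265% of thinned MSA-2 neutrophil-like cells. None of the 3 members that passed in fibroblast-like cells was called, beside 6.69% of 10320 genes higher and 7.38% lower. The 2.32 log2 ratio over all cells (2.16 to 2.49) moved with the number of these cells.

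In tumor-like cells Cyp1b1 was called higher, with 25 untreated and 195 MSA-2 UMIs, or 0.169 CPM (0.109 to 0.249) and 1.21 CPM (1.04 to 1.39), and a log2 ratio of 2.84 (2.23 to 3.5). The 195 UMIs were spread over 191 cells, and no cell had more than 2. Other classes with MSA-2 were at like levels: macrophage-like cells at 1.43 CPM (0.616 to 2.81), neutrophil-like cells at 1.38 CPM (0.557 to 2.85) and Ly6c2-type monocyte-like cells at 1.37 CPM (0.372 to 3.5). The fibroblast gene Col1a1 was present at low levels in the same classes. In MSA-2, Cyp1b1 UMIs per 1000 Col1a1 UMIs were 21.5 (20.4 to 22.5) in fibroblast-like, 17.2 (14.9 to 19.8) in tumor-like, 19.0 (8.20 to 37.4) in macrophage-like and 12.3 (4.96 to 25.4) in neutrophil-like cells. In untreated cells they were 8.12 (7.25 to 9.06) in fibroblast-like and 2.63 (1.70 to 3.88) in tumor-like cells. Per 1000 UMIs of Col1a2, a partner collagen, the untreated values were 11.2 (10.0 to 12.5) and 8.84 (5.72 to 13), which overlapped, and those with MSA-2 were both 27.9, so the untreated gap depended on the collagen chosen. Of 8 fibroblast markers, 6 were higher in the MSA-2 tumor-like cells, their levels summed to 1897 and 2441 CPM, and none was at 0. In the fibroblast-like class itself 2 of the 8 were higher, and their levels summed to 49350 and 28046 CPM. How much of the tumor-like Cyp1b1 came from RNA of fibroblasts was not tested.

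**Figure D3:**
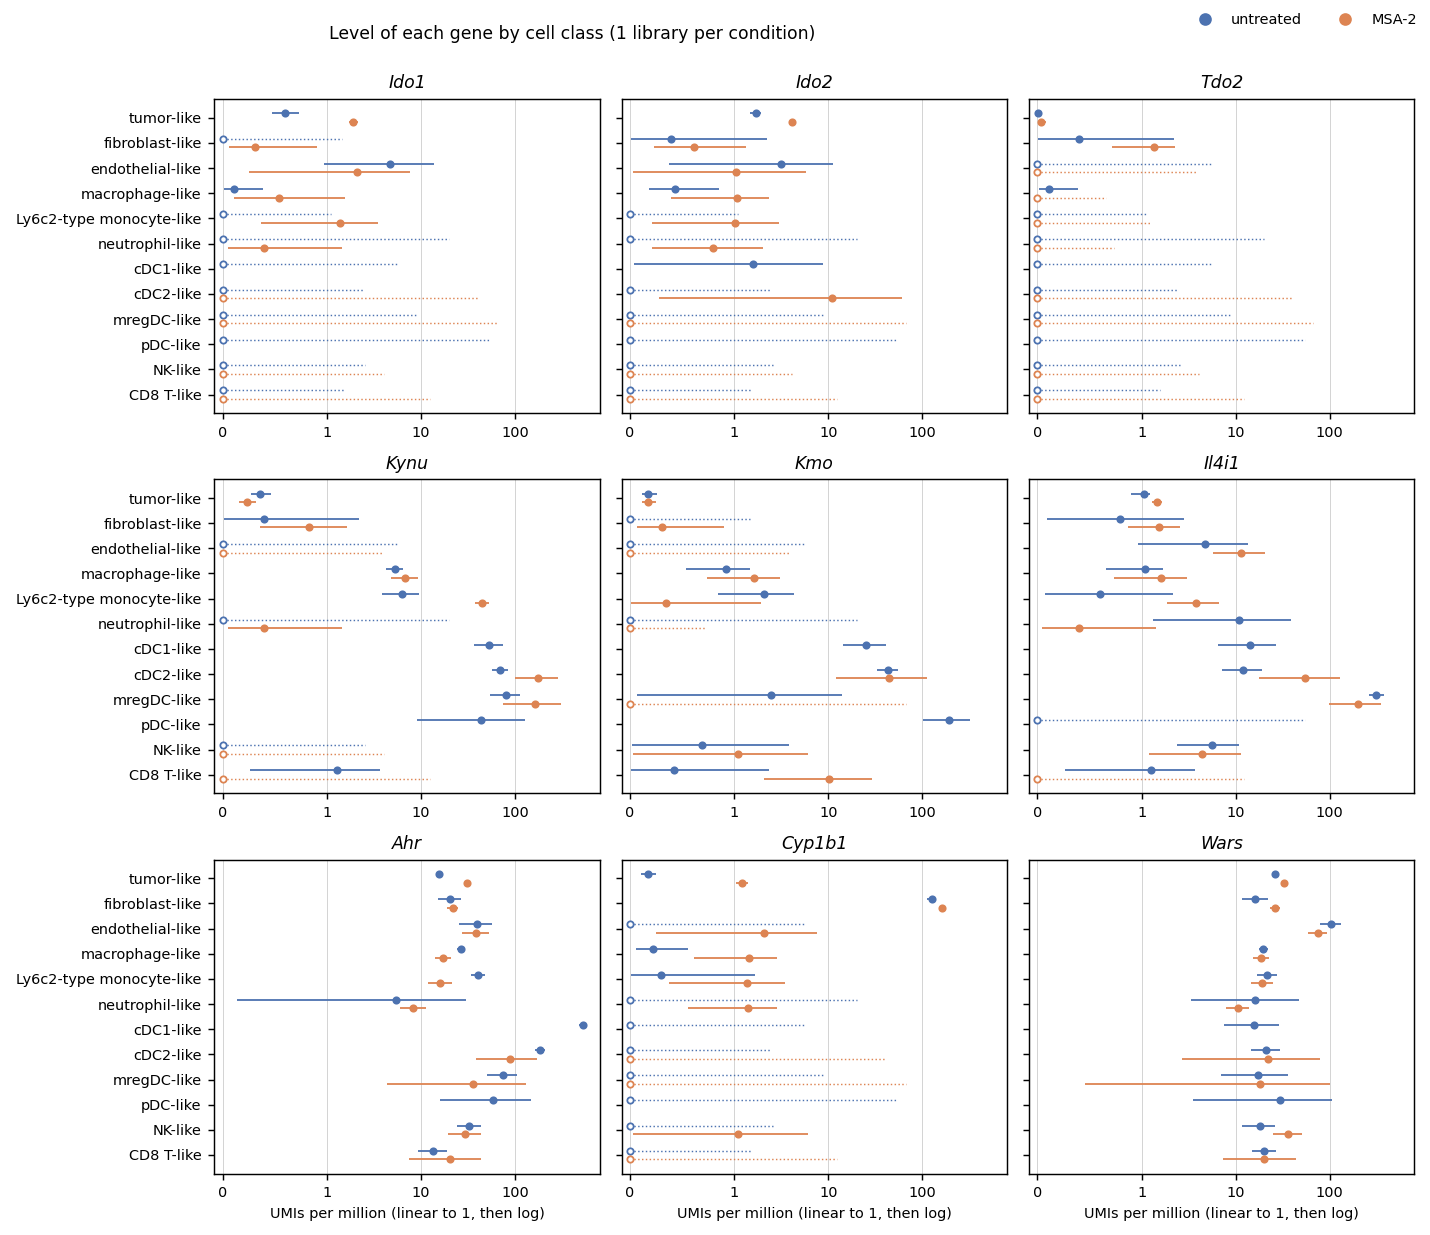
Level of each of the 9 genes (x axes, CPM, linear to 1 and logarithmic above) in cell classes with at least 10 cells in the untreated and MSA-2 libraries; bars are 95% counting intervals, and open points with dotted lines are 0 UMIs with their upper bound. Ahr stood highest in cDC1-like cells (532 CPM), Il4i1 in mregDC-like cells (316 CPM) and Cyp1b1 in fibroblast-like cells (126 and 163 CPM).

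Wars (chr12:108860030-108894174, minus strand) encodes the cytosolic tryptophanyl-tRNA synthetase and overlaps Wdr25 on the other strand. Its level was highest in endothelial-like cells, at 103 CPM (79.7 to 131) from 66 untreated UMIs and 75.3 CPM (58.9 to 94.8) from 72 MSA-2 UMIs, a log2 ratio of -0.45 (-0.96 to 0.05). In tumor-like cells 3913 and 5350 UMIs gave 26.4 CPM (25.6 to 27.2) and 33.1 CPM (32.2 to 34.0). The log2 ratio of 0.33 (0.27 to 0.39) was above 0 by more than counting error and within 2-fold. Wars was higher in 8 of 8 tumor-like clusters, with intervals apart in 4. Beside the 19 other cytosolic tRNA synthetases in tumor-like cells, whose log2 ratios ran from -0.33 (Eprs) to 0.36 (Vars) with a median of 0.05, the ratio of Wars was above 17. None of the 19 was called. In fibroblast-like cells Wars was at 16.2 and 26.6 CPM, a log2 ratio of 0.71 (0.24 to 1.23), above all 19 others there. In endothelial-like cells, in contrast, it was below all 15 others that passed, and in macrophage-like cells below 11 of 19. In macrophage-like cells (19.7 and 18.6 CPM) and Ly6c2-type monocyte-like cells (21.8 and 19.1 CPM) the libraries differed by less than counting error. In NK-like cells 26 and 33 UMIs gave 18.0 and 36.4 CPM, a log2 ratio of 1.02 (0.23 to 1.82), just past 2-fold. Wars was thus called higher there, 1 of the 2 members that passed (with Ahr), beside 4.03% of 5603 genes higher and 5.68% lower.

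None of the 3 members that passed in macrophage-like cells (Kynu, Ahr and Wars) was called, beside 6.2% of 11289 genes higher and 5.2% lower. Nor was either of the 2 that passed in NK/T-like cells (Ahr and Wars), beside 3.9% of 9200 genes higher and 6.82% lower. The same 2 passed in endothelial-like cells and neither was called, beside 5.33% of 4895 genes higher and 4.54% lower. With TMM scaling, genes called higher and lower were 848 and 446 in place of 700 and 587 in macrophage-like cells, 888 and 502 in place of 690 and 762 in fibroblast-like cells, 482 and 459 in place of 359 and 627 in NK/T-like cells, and 327 and 149 in place of 261 and 222 in endothelial-like cells.

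**Figure D4:**
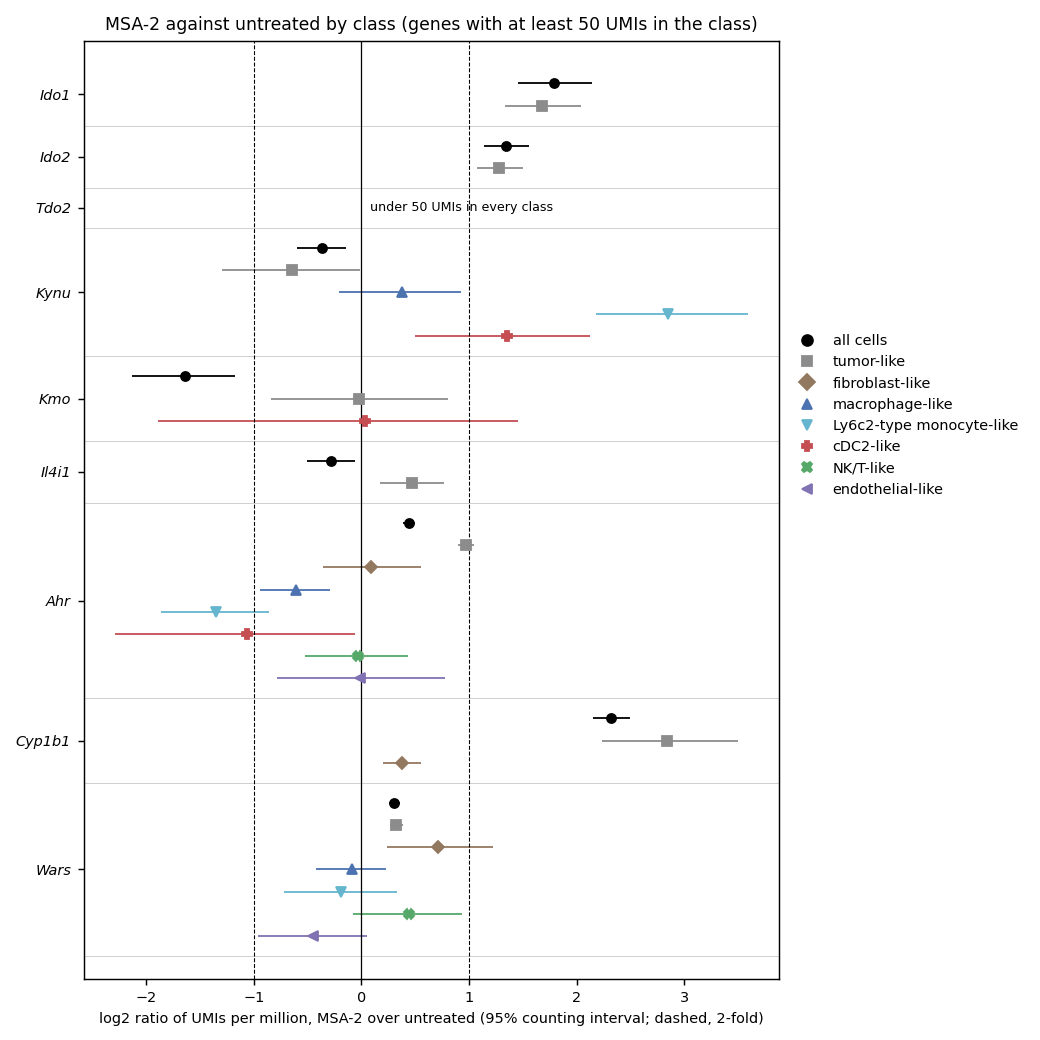
Log2 ratio of CPM, MSA-2 over untreated, for each gene in the classes where it had at least 50 UMIs in both libraries together; bars are 95% counting intervals, and dashed lines mark 2-fold. Ahr lay at 0.97 in tumor-like and -1.35 in Ly6c2-type monocyte-like cells, and Kynu at 2.85 in Ly6c2-type monocyte-like cells.

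To set the make-up of the tumors apart from the levels within classes, MSA-2 class levels were weighted by the untreated shares of UMIs over 18 classes. The log2 ratio of Kmo went from -1.64 over all cells to -0.01, and that of Cyp1b1 from 2.32 to 0.87. The Kmo value rests in part on 4 MSA-2 UMIs in 2 cDC2-like cells (44.1 CPM). It also rests on 3 MSA-2 UMIs in CD8 T-like cells (10.1 CPM). How much of the Kmo difference lay in the make-up is therefore uncertain. The ratio of Kynu went from -0.37 to 0.92, so its direction over all cells was opposite to that at a fixed make-up. Il4i1 went from -0.28 to 0.30. That value rests in part on 5 MSA-2 UMIs in 1 cDC2-like cell (55.1 CPM, 17.9 to 129), so the direction of Il4i1 at a fixed make-up is uncertain. Ido1 (1.79 and 1.72), Ido2 (1.34 and 1.35), Ahr (0.44 and 0.47) and Wars (0.31 and 0.27) hardly moved. The cDC1-like and pDC-like levels in this calculation rest on 2 MSA-2 cells each, and that of the myeloid cells left without a name on 1.

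Of 31 other genes of tryptophan transport, later steps, the serotonin branch, AHR partners and targets, sensing and NAD salvage, 26 passed the UMI minimum over all cells. Among them Slc7a11, a cystine carrier that also takes up kynurenine, and Ahrr, the repressor of AHR, were called higher, and Slc36a4, a tryptophan carrier, and Haao, the enzyme after KMO and KYNU, were called lower, near the shares of all genes (9.4% and 7.59%). Their median log2 ratio was 0.00, beside 0.01 over all genes. In tumor-like cells 24 passed, with Ahrr and Tph1 called higher and Nqo1 lower, near the shares of all genes (8.99% and 5.34%), and a median of 0.21 beside 0.05 over all genes. Ahrr went from 82 to 264 UMIs there, a log2 ratio of 1.56 (1.20 to 1.94). Nqo1, a further target of AHR and of NRF2, went from 369 to 186 UMIs, at -1.11 (-1.38 to -0.86). Tiparp, another AHR target, was at 276 and 288 CPM in tumor-like cells, and Cyp1a1 had 1 and 0 UMIs.

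In Ly6c2-type monocyte-like cells, in which Ahr was lower, 15 of the 31 passed. Tiparp went from 300 to 1181 CPM (log2 ratio 1.98), Slc7a11 from 115 to 462 CPM (2.01) and Slc7a8, a neutral amino acid carrier, from 89.1 to 243 CPM (1.45), and all 3 were called higher. Slc36a4 (-1.63) and Afmid, the formamidase that releases kynurenine (-1.37), were called lower, beside the shares of all genes given above for the class (10.5% higher, 11% lower). Haao went from 37 to 5 UMIs there, under the UMI minimum. In macrophage-like cells Haao (153 and 17 UMIs), Afmid (316 and 28) and Slc36a4 (271 and 29) were called lower, and Slc7a11 (822 and 796 UMIs, log2 ratio 1.68) and Kyat3 (37 and 25 UMIs, 1.16) higher, of 21 that passed and beside 6.2% of genes higher and 5.2% lower. In fibroblast-like cells 19 passed, 5 were called higher and 1 lower, beside 6.69% and 7.38% of genes. Slc7a11 had the largest of these ratios, with 21 and 925 UMIs and a log2 ratio of 3.52 (2.90 to 4.22).

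Genes whose levels ran most like those of the members were sought over 25 points (classes by library with at least 20 cells), which share libraries and depth. Cyp1b1 was most like Bmper (Pearson's r = 0.987), Col24a1 (0.987) and Ccdc80 (0.986). Kmo was most like A430035B10Rik (0.912), Rtn1 (0.903) and Haao (0.878), Il4i1 like Slc22a23 (0.922), Strip2 (0.882) and Ccl22 (0.873), and Kynu like Lsr (0.951), Gm43569 (0.948) and Htr7 (0.945). For Ahr they were Ryr1 (0.846), H2-Ob (0.836) and Btla (0.835), and for Wars Eogt (0.863), Nck1 (0.842) and Golm1 (0.839). For the sparse Ido1 they were 9330175M20Rik (0.945), Rapgef3 (0.933) and Rhbdl2 (0.924), and for Ido2 1810019N24Rik (0.962), Sfxn4 (0.932) and Zbtb3 (0.922). These were the highest values among 14414 genes and are given as a description.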

How the data were processed

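Tumors were dissociated, and the paper's methods say that cells were sorted, naming no marker, and call them immune cells, while 49% and 52.1% of the cells kept here were tumor-like. Libraries were prepared with 10x Chromium 3′ v3.1 and, per the paper's methods, sequenced on an Illumina NovaSeq, with 1 library per condition. The deposited matrices hold the authors' UMI counts, not normalized, made with Cell Ranger (7.0.1 per the file headers, 7.0.0 per the submitters' processing notes, another version in the paper's methods) on mm10. Counting of intronic reads, use of strand and doublet removal are not given in the sources used here. The deposited barcodes held 198135335 untreated and 204387165 MSA-2 counts.

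Barcodes passed with 500 or more genes and no more than 20% of UMIs from mitochondrial genes (14039 of 14386 and 13963 of 14617). Scrublet in scanpy 1.11.5, at 0.8% expected per 1000 barcodes, then called 690 and 652 doublets (4.91% and 4.67%), which were removed. Cells were clustered with Seurat 5.3.0 (reciprocal PCA integration, 2000 variable genes, 30 dimensions, resolution 1). The 64 member and pathway genes and 126 genes with interferon-type names were kept out of the variable genes. Myeloid and lymphoid cells were clustered again. Clusters were named from marker lists, by a rule adjusted with the clusters in view. The members and lists were chosen with earlier results of these data known.

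UMIs were summed by class and library. With 1 library a condition there is no test. Ratios carry exact conditional binomial, levels exact Poisson and shares of cells Clopper-Pearson 95% intervals, for counting error only, and a count of 0 is read as an upper limit of 3 counts. The ratio calculation was tested on simulated data, with 200 changed genes a class. In the tumor-like class (16073 genes) all kept their direction, 194 passed 2-fold, and 11 unchanged genes did. In the macrophage-like class (11289 genes) these were 194 and 28, and in the fibroblast-like class (10320 genes) 180 and 53. Genes were named mainly as members, list members past 2-fold, or the 3 most alike by Pearson's r of log2 of CPM plus 10. Further genes, such as Tiparp, Cyp1a1 and Haao where they were not called, were named for context. Alternatives were the cell filter, doublets, integration, variable genes, resolution, UMI minimum, TMM scaling (edgeR 4.0.16) and equal weight per cell. Coordinates are from GENCODE M21 on GRCm38. Python 3.11.15, numpy 2.4.6 and scipy 1.17.1 were used.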

Additional observations from a re-analysis of the deposited data

Results flagged for a closer look

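The log2 ratios of Kynu and Ahr had opposite signs in different cell classes, with counting intervals that left out 0, for Kynu in tumor-like cells only barely. For Kynu the ratio reached 2.85 in the Ly6c2-type monocyte-like class and 1.35 in cDC2-like cells, against -0.64 in tumor-like cells, where it rests on 53 and 37 UMIs with an interval ending at -0.01, and with intervals apart in 0 of 8 clusters. Without cluster 8 the tumor-like Kynu ratio was -0.51 (-1.17 to 0.14), an interval that took in 0. For Ahr it was 0.97 in tumor-like cells, against -0.61 in macrophage-like, -1.35 in Ly6c2-type monocyte-like and -1.06 in cDC2-like cells. With 1 library a condition, the difference between classes was not tested.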

How the results depend on the processing

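Of 43 log2 ratios of the members, 34 kept their sign and 36 their side of 2-fold under every alternative run for them, and no called value changed sign. With each cell given equal weight, the ratios over all cells were 0.62 for Kynu, -0.79 for Il4i1, -0.14 for Ahr and 0.078 for Wars. Without integration, those in tumor-like cells were 0.80 for Ahr and 0.41 for Wars. The last settings were added after seeing the data: without cluster 8, Ahr in tumor-like cells was at 0.81, and with Ly6c2-type and macrophage-like cells pooled, Kynu was at 1.89 and Ahr at -0.76. The cause of these moves was not tested.

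The Ly6c2-type class moved with the clustering. Its share of Kynu UMIs in the untreated library, 5.82% as reported, was 1.97% with the stricter cell filter (1000 genes, 10% mitochondrial), 1.11% at resolution 2 and 0% without integration, where the class held 8 untreated cells. Its MSA-2 share, 45.7% as reported, was 51.7% with no cell filter, 30.1% with the stricter filter, 34.0% with doublets kept, 64% without integration and 34.9% with the member, pathway and interferon genes among the variable genes. At resolution 0.5 the class was not found. The pooled Kynu ratio ran from 0.94 (resolution 0.5) to 2.58 (no integration), and Kynu in macrophage-like cells alone passed 2-fold with the stricter filter (1.34). The cDC2-like class was not found with that filter, and neutrophil-like cells were 5 and 263.

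Without thinning, 0.995% and 2.62% of tumor-like cells had an Ido1 UMI and 25.4% and 40.5% an Ahr UMI. With no UMI minimum and 1 CPM added, genes past 2-fold were 1154 over all cells (2953 as reported), 773 in tumor-like (2303), 3108 in Ly6c2-type (1736), 2110 in NK/T-like (986), 5146 in endothelial-like (483) and 7343 in cDC2-like cells (1151). With at least 200 UMIs they were 1909 over all cells, 1359 in tumor-like, 779 in fibroblast-like (1452), 737 in macrophage-like (1287), 898 in Ly6c2-type, 421 in NK/T-like, 136 in endothelial-like and 229 in cDC2-like cells. With TMM factors 2 other pathway genes passed 2-fold in NK/T-like cells, in place of 1. TMM moved the median ratio of all genes by 0.17 in fibroblast-like, 0.13 in macrophage-like, 0.26 in Ly6c2-type, 0.14 in NK/T-like, 0.13 in endothelial-like and 0.13 in cDC2-like cells. No paired analysis was possible because each condition has 1 library. Sparse genes (Tdo2, and Kmo and Kynu in the 44 MSA-2 dendritic cells) limit what this depth can show.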

Other observations

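The unnamed cluster 10, led by the mast cell genes Mcpt2 and Cma1 but also by Ifnb1 and Slfn4, held 352 untreated and 588 MSA-2 cells and had 2 and 47 Kynu UMIs, the latter in 26 cells at 47.4 CPM (34.9 to 63.1). In tumor-like cluster 8 Il4i1 was at 3.19 CPM (46 UMIs) with MSA-2, the highest of the 8 clusters in that library.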
